A study of Rattus norvegicus with 24 samples.

Results

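The 10 miRs described here are textbook markers of cells other than the beta cell: rno-miR-1-3p, rno-miR-206-3p, rno-miR-133a-3p, rno-miR-133b-3p and rno-miR-208a-3p of muscle, rno-miR-122-5p of liver, and rno-miR-142-3p, rno-miR-150-5p, rno-miR-223-3p and rno-miR-451-5p of blood cells. They were picked out among the 758 rat miRs on the array by a rule on their names alone, which uses no measured value, although earlier results of these data were known when it was set. The samples were INS1 cells, a rat insulinoma line used as a beta cell model. In each time series, at 6 h and at 24 h, cells were left untreated (Ctrl), exposed to cytokines (Cyt), given the lysine deacetylase inhibitor (KDACi) Givinostat alone (Giv_Ctrl), or given Givinostat and then cytokines (Giv_Cyt). Givinostat was used at 125 nM and was added 1 h ahead of the cytokines, which were 150 pg/ml IL-1β with 0.1 ng/ml IFN-γ. Each of the 8 groups had 3 one-colour arrays, 24 in all, which the submitters call technical replicates while the paper speaks of triplicates, so the p-values may measure only technical spread. All groups came from this single tumour-derived line, so no other cell type was part of the culture by design. 2 arrays, 6h_Giv_Ctrl_1 and 6h_Giv_Cyt_3, stood apart from the others of their groups, and the values of rno-miR-206-3p that rest on them are also given without them, an alternative chosen after seeing the data.

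A miR is cut from a hairpin transcript and guides silencing proteins to mRNAs that pair with its seed, bases 2 to 8 of the mature strand. Some miRs are made almost only in 1 lineage, which makes them markers of that lineage in mixed tissue and in plasma. miR-1, miR-133 and miR-206 are switched on by the myogenic transcription factors, miR-206 mainly in skeletal muscle, while miR-208a lies in a heart myosin gene. miR-122 is the dominant miR of hepatocytes. miR-142 is found across blood lineages, miR-150 in mature lymphocytes, miR-223 in myeloid cells and miR-451 in red cell precursors. In a beta cell line most of these miRs would be silent, and the arrays show for each of them whether its probes read above background, and whether cytokines or Givinostat moved the reading.

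RefSeq (assembly GRCr8) gave a mature sequence for 9 of the 10 miRs, with rno-miR-150-5p the exception. The pair that shares a seed among the brightest readings is shown first, because these miRs differ by few bases and were read so differently. The seed is in capitals.
rno-miR-206-3p: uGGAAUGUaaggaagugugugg
rno-miR-1-3p: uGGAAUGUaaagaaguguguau
Counted from the 5′ end of rno-miR-1-3p, the substitutions that give rno-miR-206-3p are A11G, A21G and U22G, so the mature miRs are alike at 19 of 22 positions. rno-miR-206-3p is at chr9:30590747-30590768 on the plus strand, within the span of the lncRNA gene LOC120094648. rno-miR-1-3p is at chr18:2160339-2160360 on the minus strand, within the span of the protein-coding gene Mib1.
rno-miR-133a-3p: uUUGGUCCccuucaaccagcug
rno-miR-133b-3p: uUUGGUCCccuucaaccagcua
These miRs share a seed too and differ by G22A alone. They matter here as genomic neighbours: rno-miR-133b-3p, at chr9:30594629-30594650, lies in the same lncRNA span as miR-206, and rno-miR-133a-3p, at chr18:2157886-2157907, in the same host gene as miR-1.
rno-miR-122-5p: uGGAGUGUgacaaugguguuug
rno-miR-122-3p: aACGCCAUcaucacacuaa
rno-miR-223-3p: uGUCAGUUugucaaauacccc
Both arms of the miR-122 hairpin are shown because they were read differently, and rno-miR-223-3p because it was the one member called different between groups. The arms of miR-122 are at chr18:61028831-61028852 and chr18:61028867-61028885, and rno-miR-223-3p is at chrX:65151450-65151470 in the span of the lncRNA gene LOC120099372. The seed of rno-miR-122-5p, GGAGUGU, differs from that of rno-miR-1-3p by A5G.

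Each miR was read by 16 spots per array, 8 copies of each of 2 probe sequences, which Feature Extraction, the scanner software, marks when they are well above background. Here a miR counts as well above background on an array if 8 or more of its 16 spots were marked. By this measure 1 of the 10 miRs, rno-miR-206-3p, was read on all 24 arrays, against 117 of all 758 miRs, or 15.4%. It was also the 1 member read on all arrays of at least 1 group, against 22.2% of all miRs. With rno-miR-1-3p, 2 of 10 were read on at least 1 array, against 29.6% of all miRs. Of 10 islet and beta cell miRs on the array, 8 were well above background on all 24 arrays, among them miR-375-3p and miR-7a-5p. rno-miR-184 and rno-miR-148a-3p were on none. Of 5 fibroblast and smooth muscle miRs, 1 was on any array, rno-miR-214-3p on 13. Of 2 endothelial miRs, 1 was on any array, rno-miR-126a-3p on 2. Of all spots of miRs 19.2% were marked, and of the negative control spots 0.403%, or 42 of 10416.

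**Figure D1:**
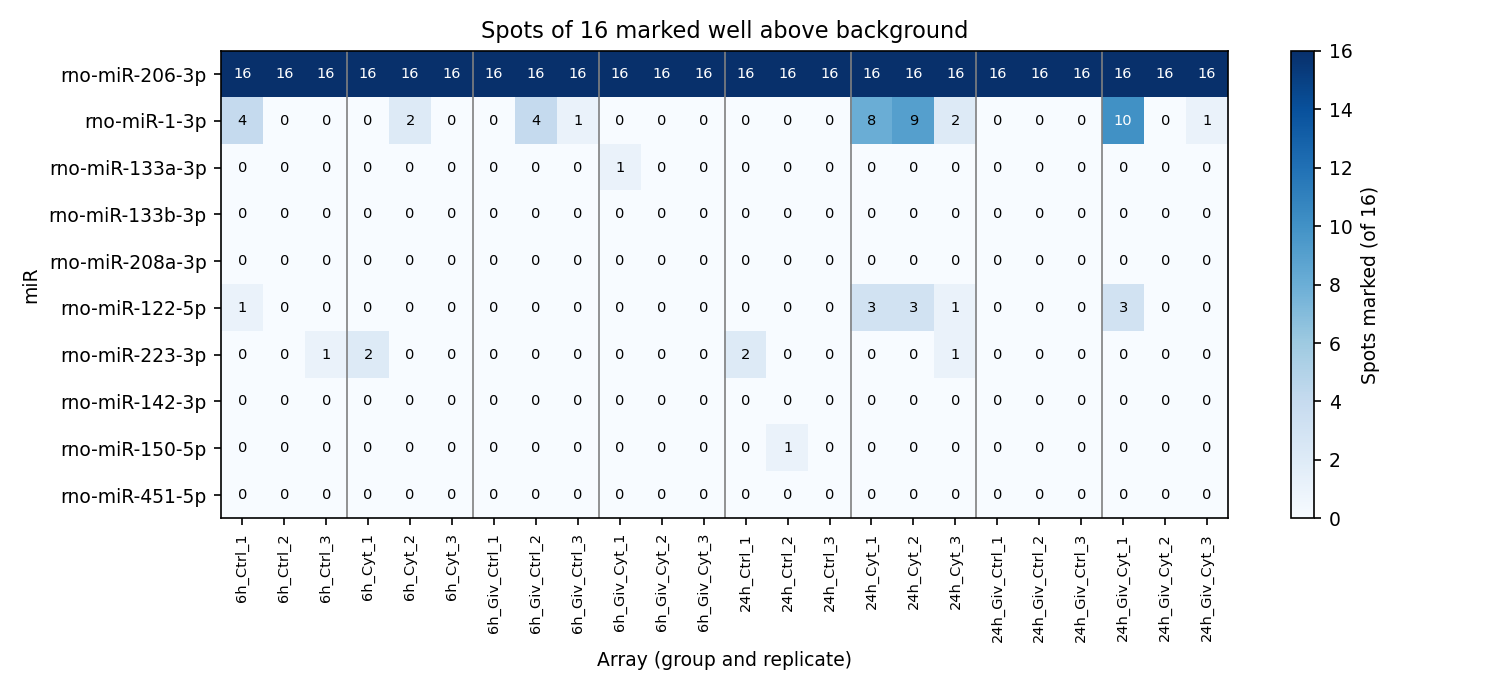
Number of spots, of 16, marked well above background for each of the 10 miRs (rows) on each of the 24 arrays (columns, 3 per group, separated by lines). rno-miR-206-3p had 16 of 16 on every array, and no other miR passed 10.

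Among the muscle miRs, rno-miR-206-3p had all 384 of its spots marked. Its mean processed intensity, the background-subtracted linear signal before any normalization between arrays, ran from 37.1 to 147 with a median of 71.5, while the negative controls averaged 1.71 to 5.37 per array. On each array it lay between 9.21 and 22.99 SDs of the negative controls above their mean. In 6h_Ctrl the arrays read 102, 37.1 and 45.7, and in 6h_Cyt 51.9, 88.5 and 54.6. In 6h_Giv_Ctrl they read 43.4, 108 and 77.9, and in 6h_Giv_Cyt 58.8, 70.3 and 120. At 6 h the arrays of a group thus differed widely, and all groups overlapped.

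At 24 h the intensity of rno-miR-206-3p was 49.7, 59.98 and 52.2 in 24h_Ctrl and 110, 139 and 86.0 in 24h_Cyt. It was 55.8, 72.6 and 38.7 in 24h_Giv_Ctrl and 147, 90.5 and 86.3 in 24h_Giv_Cyt. Both cytokine groups at 24 h were above both groups without cytokines, without overlap. The share of all miRs for which this held was not counted. The arrays of the cytokine groups were brighter as a whole. The 24h_Cyt arrays were on slides 1 and 2 and those of 24h_Ctrl on slide 4, so these groups also differ in slide. The 75th percentile of processed intensity over the miRs read on all arrays was 596 to 1003 in 24h_Cyt and 487 to 571 in 24h_Giv_Cyt. It was 271 to 347 in 24h_Ctrl and 303 to 452 in 24h_Giv_Ctrl. In log2 signal without normalization between arrays, rno-miR-206-3p was 0.63 higher in 24h_Cyt than in 24h_Ctrl. The median difference over the miRs read on all arrays of at least 1 group was 0.70. In 24h_Giv_Cyt vs 24h_Giv_Ctrl these values were 0.64 and 0.43.

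Quantile normalization gives every array the same distribution of spot values, and after it the groups overlapped. The log2 signal of rno-miR-206-3p was 6.89, 7.15 and 6.82 in 24h_Ctrl (6.95 ± 0.17, SD, n = 3) and 6.68, 6.90 and 6.78 in 24h_Cyt (6.79 ± 0.11, SD, n = 3). limma gave a log2FC of -0.16 ± 0.18 (SE) with a 95% interval from -0.55 to 0.22 and an adjusted p of 0.623. In 24h_Giv_Cyt vs 24h_Giv_Ctrl the log2FC was 0.11, with an interval from -0.28 to 0.49 and an adjusted p of 0.786 from limma. Over the 8 treatment comparisons it ran from -0.16 to 0.19, and the outermost interval bounds were -0.55 and 0.57. None of the 8 intervals excluded 0. These log2FCs are of signal without background correction. With background-subtracted processed signals scaled per array by their 75th percentile, the log2FC over the 8 comparisons had a wider range. It ran from -0.29 in 24h_Giv_Ctrl vs 24h_Ctrl to 0.51 in 24h_Giv_Cyt vs 24h_Giv_Ctrl. In order of group mean of the quantile-normalized signal, 6h_Giv_Cyt was highest at 7.09 and 24h_Cyt lowest at 6.79. Every neighbour in the order overlapped with the next. Without 6h_Giv_Ctrl_1 and 6h_Giv_Cyt_3, 6h_Giv_Ctrl was highest at 7.17, 6h_Giv_Cyt was in the sixth place at 6.86, and 24h_Cyt was again lowest.

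**Figure D2:**
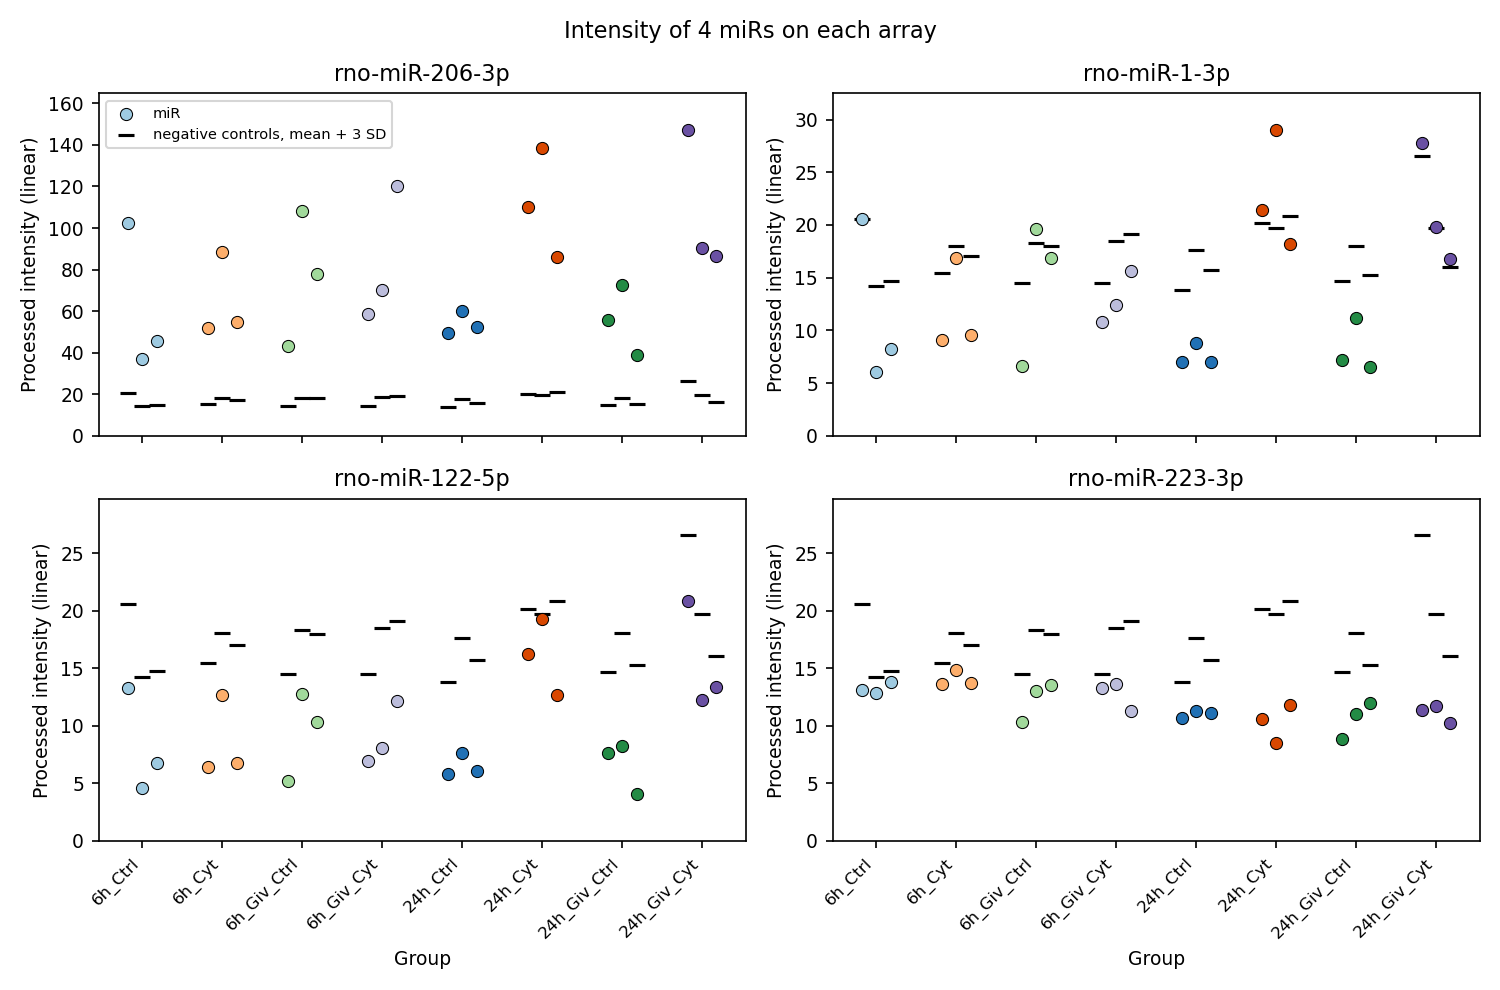
Mean processed intensity on a linear scale (vertical axis) of the 4 miRs with any repeated signal, by group (horizontal axis); each point is 1 array and each dash is the mean plus 3 SDs of that array's negative controls. rno-miR-206-3p lay above the dash on all 24 arrays, rno-miR-122-5p above it on 0 arrays, and the scales of the panels differ.

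The other miRs of its locus read as background. rno-miR-206-5p, the other arm of the same hairpin, was well above background on 0 of 24 arrays, with at most 1 of 16 spots marked. The hairpin of rno-miR-133b-3p lies 3814 bases from the mature rno-miR-206-3p in the same lncRNA span. rno-miR-133b-3p had 0 of 384 spots marked, and its intensity, from 0.110 to 6.87, was below the mean of the negative controls on 19 arrays. rno-miR-133b-5p was likewise on 0 arrays. The myomiRs of the array other than the 5 members followed suit: rno-miR-1b, rno-miR-208b-3p, rno-miR-499-5p and rno-miR-486 were on 0 arrays, the last with up to 7 of 16 spots marked.

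The probes of rno-miR-206-3p are short, at 15 and 16 bases, and read positions 8 to 22 and 7 to 22 of the mature miR, outside the seed. They are shown because their 5′ end, in DNA letters, pairs with the stretch of alternating G and U near the 3′ end of the miR.
shorter probe of rno-miR-206-3p: ccacacacttcctta
longer probe of rno-miR-206-3p: ccacacacttccttac
The longer probe was brighter on 24 of 24 arrays, by a median of 9.04 units of processed intensity, and both probes had 192 of 192 spots marked. Over the 24 arrays, the detected miRs whose normalized log2 signal was most like that of rno-miR-206-3p were rno-miR-32-3p (Pearson r 0.977), rno-miR-466c-5p (r 0.976) and rno-miR-672-5p (r 0.974), of 167 compared with a median r of -0.42. Of these 167 miRs, 18 had an r above 0.9 and 100 an r below 0. These correlations are over arrays that share labelling, slides and the normalization, and are given as a description. Over the 22 arrays without 6h_Giv_Ctrl_1 and 6h_Giv_Cyt_3, the r values of these 3 miRs were 0.963, 0.959 and 0.950, 12 of the 167 miRs had an r above 0.9, the median r was -0.36, and the 3 highest were rno-miR-6316, rno-miR-32-3p and rno-miR-568.

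Looked at after these values were known, 4 of the 18 miRs with an r above 0.9 shared a stretch of sequence with rno-miR-206-3p. The other miRs above 0.9 are not among those found to hold it, so the likeness was not particular to it. The run GUGUGUG at positions 15 to 21 of rno-miR-206-3p, read in the sense of the miR alone, is held by 5 of the 685 array miRs with a RefSeq mature sequence, or 0.730%. The run is in capitals.
rno-miR-206-3p: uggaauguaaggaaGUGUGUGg
rno-miR-32-3p: gcaauuuaGUGUGUGugauauu
rno-miR-672-5p: ugagguugguguacuGUGUGUGa
rno-miR-466d: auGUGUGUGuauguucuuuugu
rno-miR-466b-5p: uauGUGUGUGuguauguccaug
All 5 were well above background on all 24 arrays, and the r of the other 4 with rno-miR-206-3p ran from 0.959 to 0.977, and from 0.939 to 0.963 without the 2 arrays. The 103 other miRs read on all 24 arrays with a RefSeq sequence had a median r of -0.51, though rno-miR-466c-5p, which lacks the run, reached 0.976. rno-miR-32-3p also shares the longest run, 8 bases, with the targets of the miR-206 probes among the detected miRs. Whether RNAs other than miR-206 gave part of the signal at these probes was not tested.

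**Figure D3:**
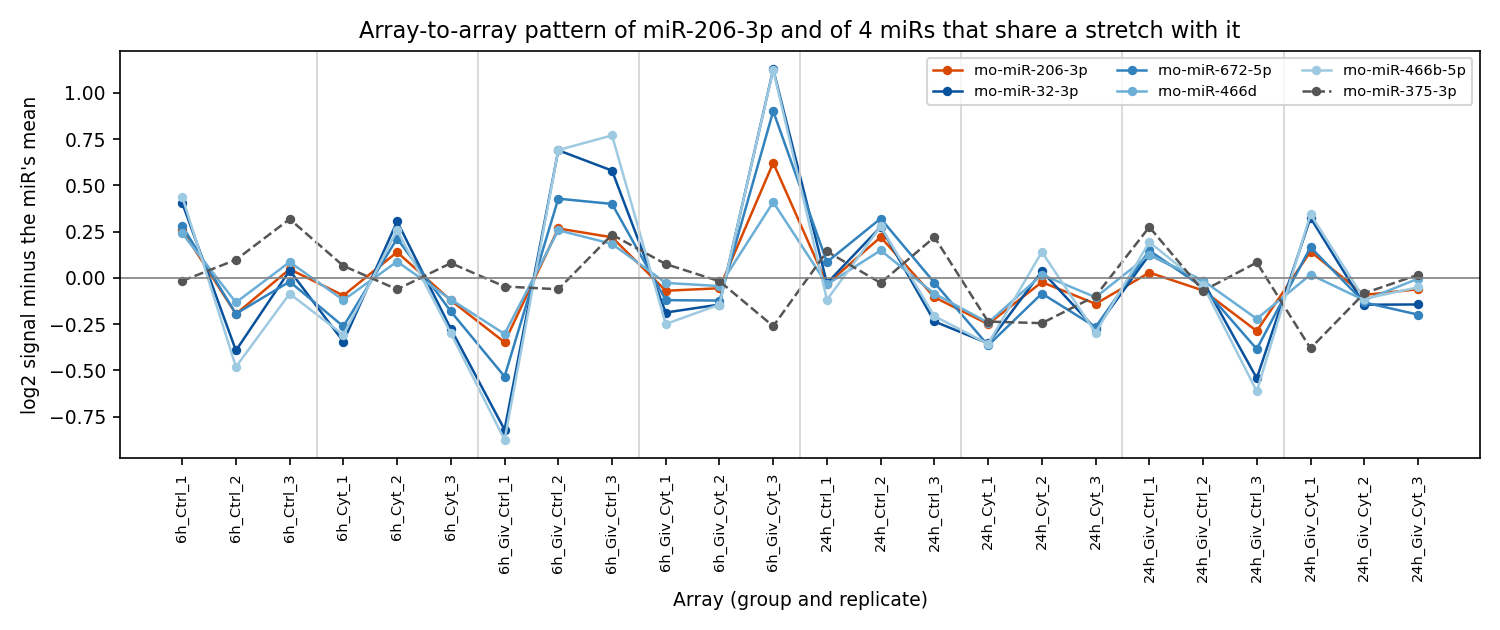
Normalized log2 signal minus the miR's own mean (vertical axis) on each of the 24 arrays (horizontal axis) for rno-miR-206-3p, for the 4 miRs that hold the same 7-base run, and for the beta cell miR rno-miR-375-3p (dashed). All 5 miRs that hold the run were highest on 6h_Giv_Cyt_3 and lowest on 6h_Giv_Ctrl_1, with 0.62 for rno-miR-206-3p and 1.13 for rno-miR-32-3p on 6h_Giv_Cyt_3, and -0.35 and -0.82 on 6h_Giv_Ctrl_1.

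These 2 arrays also stood apart as a whole. Over all miRs, 6h_Giv_Ctrl_1 correlated with the other arrays of its group at 0.958 and 0.960, against 0.998 between those. It was on slide 1 and the others of its group were on slide 2. 6h_Giv_Cyt_3 correlated with the others of its group at 0.970 and 0.978, against 0.997. Next lowest, 6h_Ctrl_1 correlated with the others of its group at 0.9845 and 0.9882, against 0.996. Without 6h_Giv_Cyt_3 the log2FC of rno-miR-206-3p in 6h_Giv_Cyt vs 6h_Cyt went from 0.19 to -0.0368, and against 6h_Giv_Ctrl it went from 0.12 to -0.11. Without 6h_Giv_Ctrl_1 the log2FC in 6h_Giv_Cyt vs 6h_Giv_Ctrl was -0.0777, that in 6h_Giv_Ctrl vs 6h_Ctrl went from 0.0091 to 0.21, and none of these values was called by limma.

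rno-miR-1-3p, the sister of miR-206 with the same seed, was read at the edge of detection. It was well above background on 3 of 24 arrays, 24h_Cyt_1 with 8 spots, 24h_Cyt_2 with 9 and 24h_Giv_Cyt_1 with 10, and 41 of its 384 spots were marked in all, or 10.68%. Its processed intensity was 7.02, 8.83 and 7.05 in 24h_Ctrl and 21.4, 29.0 and 18.2 in 24h_Cyt, and it was 7.21, 11.2 and 6.48 in 24h_Giv_Ctrl and 27.8, 19.8 and 16.8 in 24h_Giv_Cyt. The cytokine arrays were higher without overlap, on arrays that were brighter as a whole and, for 24h_Cyt against 24h_Ctrl, on other slides. The share of all miRs for which this held was not counted. Outside these groups it reached 20.6 on 6h_Ctrl_1 and 19.6 on 6h_Giv_Ctrl_2, with 4 spots marked on each. In normalized log2 signal the groups were 5.80 ± 0.03 and 5.88 ± 0.06 (SD, n = 3) without Givinostat and 5.80 ± 0.04 and 5.91 ± 0.01 with it. limma gave log2FCs of 0.07 (adjusted p 0.427) and 0.11 (adjusted p 0.419). The arrays overlapped without Givinostat. With it they did not, as for 23.6% of all miRs in 24h_Giv_Cyt vs 24h_Giv_Ctrl. These are differences in measured signal, as at most 2 of 3 arrays of a group read the miR.

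The signal of rno-miR-1-3p followed that of rno-miR-206-3p over the 24 arrays with an r of 0.71, and with 0.69 without the 2 arrays that stood apart. The miR-1 probes, of 20 and 21 bases, pair with rno-miR-206-3p at 17 and 18 of their bases, and in the other direction the miR-206 probes pair with rno-miR-1-3p at 12 of 15 and 13 of 16. How much of the miR-1 reading came from miR-206 was not tested. The miRs of the same host gene gave nothing further: rno-miR-133a-3p had 1 of 384 spots marked, and its other arm was on 0 arrays. That spot, on 6h_Giv_Cyt_1, lifted the mean of the 16 spots to 62.9 while their median was -0.40. rno-miR-208a-3p, the heart miR within Myh6, had 0 of 384 spots marked and was below the mean of the negative controls on all 24 arrays, at -8.49 to -4.44.

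Of liver, rno-miR-122-5p was well above background on 0 of 24 arrays, with 11 of 384 spots marked and at most 3 on an array. All 11 were at the longer of its probes. Its intensity ran from 4.07 to 20.8, and the 3 highest readings were on 24h_Giv_Cyt_1, 24h_Cyt_2 and 24h_Cyt_1. It was 16.2, 19.3 and 12.7 in 24h_Cyt against 5.80, 7.65 and 6.08 in 24h_Ctrl, groups that differ in array brightness and in slide. In 24h_Cyt vs 24h_Ctrl its normalized log2FC was 0.02 ± 0.04 (SE, limma, adjusted p 0.817). Feature Extraction's own mark for a detected miR, which is laxer, was set for it on 8 arrays, 3 of them in 24h_Cyt.

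The probes of the other arm of the miR-122 hairpin read above background. rno-miR-122-3p, normally the minor strand in liver, was well above background on 23 of 24 arrays with 7 to 16 of 16 spots marked, and its intensity ran from 15.3 to 97.5 with a median of 39.6. rno-miR-3591, whose hairpin overlaps that of miR-122 on the opposite strand, had 384 of 384 spots marked, at 48.3 to 222. The mature sequences of rno-miR-3591 and rno-miR-122-3p are alike along most of their length. How much of the rno-miR-122-3p reading came from rno-miR-3591 was not tested. rno-miR-122-3p was called in none of the 15 comparisons, with a log2FC of 0.05 ± 0.13 (SE) and an adjusted p of 0.826 from limma in 24h_Cyt vs 24h_Ctrl. Over the 24 arrays the signal of rno-miR-122-3p correlated with that of rno-miR-206-3p at 0.81, and that of rno-miR-3591 at 0.91, which became 0.72 and 0.90 without the 2 arrays that stood apart.

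Of the blood cell miRs, rno-miR-142-3p and rno-miR-451-5p had 0 of 384 spots marked and were below the mean of the negative controls on all 24 arrays, at intensities of -1.45 to 1.996 and -1.29 to 1.97. rno-miR-150-5p had 1 of 384 spots marked, on 24h_Ctrl_2, and ran from -1.73 to 5.82. The other arms rno-miR-142-5p, rno-miR-150-3p and rno-miR-223-5p were on 0 arrays. So were rno-miR-144-3p and rno-miR-144-5p, whose hairpin lies 106 bases from the mature rno-miR-451-5p. rno-miR-155-5p, which activated immune cells make, was on 0 arrays too, with at most 1 spot marked. None of the 4 blood cell members and none of these 3 other blood cell miRs of the list was thus well above background on any array, with or without cytokines or Givinostat.

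rno-miR-223-3p, the myeloid miR, lay just above the controls without passing the mark. It was well above background on 0 of 24 arrays, with 6 of 384 spots marked. Feature Extraction's laxer mark per miR was set on 8 arrays, 2 of 6h_Ctrl, 3 of 6h_Cyt, 1 of 6h_Giv_Cyt and 2 of 24h_Ctrl, and on 0 arrays of 24h_Cyt and of the other 3 groups. Its intensity was even across arrays, from 8.55 to 14.9 with a median of 11.8, above the mean of the negative controls on all 24 arrays by 0.955 to 2.75 of their SDs. Its probe reading was not higher in 24h_Cyt than in 24h_Ctrl, as those of miR-206, miR-1 and miR-122 were. The intensity was 10.6, 11.3 and 11.1 in 24h_Ctrl and 10.6, 8.55 and 11.8 in 24h_Cyt, which overlap.

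In normalized log2 signal, rno-miR-223-3p was 5.96, 5.94 and 5.95 in 24h_Ctrl (5.95 ± 0.01, SD, n = 3) and 5.69, 5.68 and 5.75 in 24h_Cyt (5.70 ± 0.04, SD, n = 3). All arrays of 24h_Cyt were below all of 24h_Ctrl, as was so in 1 direction or the other for 36.7% of all miRs. limma gave a log2FC of -0.24 ± 0.06 (SE) and an adjusted p of 0.0175, past the call at an adjusted p below 0.05 and an absolute log2FC above 0.1375. It was the 1 member called in this comparison, where 31 of 758 miRs or 4.09% were called, 11 of them lower. As neither group read it well above background, this is a difference in measured signal and no fold is read from it. Each of the other 10 lower miRs was read well above background on at least 1 of the 6 arrays.

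rno-miR-223-3p was called in 24h_Cyt vs 6h_Cyt too, again as 1 of 10 members where 6 miRs or 0.792% were called. The 6h_Cyt arrays read 5.98, 5.93 and 5.97, the log2FC was -0.25 ± 0.06 (SE), and the adjusted p from limma was 0.0494. This call sat at the threshold: leaving out 1 array ended it for 17 of the 24 arrays, with adjusted p from 0.00111 to 0.198 over all 24. The groups did not overlap, as for 21.8% of all miRs. With Givinostat the values were lower with cytokines as well, without a call: the log2FC was -0.15 for 24h_Giv_Cyt against 24h_Giv_Ctrl (adjusted p 0.294), and it was -0.18 against 6h_Giv_Cyt (adjusted p 0.258). There the groups did not overlap either, as for 23.6% and 14.1% of all miRs. These comparisons share arrays with each other and are not separate evidence.

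Several values moved with the rno-miR-223-3p result. 24h_Cyt shares no slide with 24h_Ctrl, all of whose arrays were on slide 4, so there is no within-slide value, and with slide as a fixed block in the limma fit the log2FC was -0.19 with an adjusted p of 0.734. With slide as a random block it was -0.24 with an adjusted p of 0.0373, which keeps the call. Within slide 2, the one 24h_Cyt array was 0.20 below the mean of 2 6h_Cyt arrays. Within slides 3 and 4 the differences of 24h_Giv_Cyt from 24h_Giv_Ctrl were -0.14 and -0.15. Without normalization between arrays the log2FC in 24h_Cyt vs 24h_Ctrl was -0.0442, and with array brightness as a covariate -0.14, with adjusted p of 0.809 and 0.452 from limma. It was -0.15 after normexp background correction and -1.36 with processed signals scaled per array by their 75th percentile, both called. Leaving out 24h_Ctrl_1, 24h_Ctrl_2, 24h_Cyt_1 or 24h_Cyt_2 ended the call, at an adjusted p of 0.0627 to 0.0812.

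**Figure D4:**
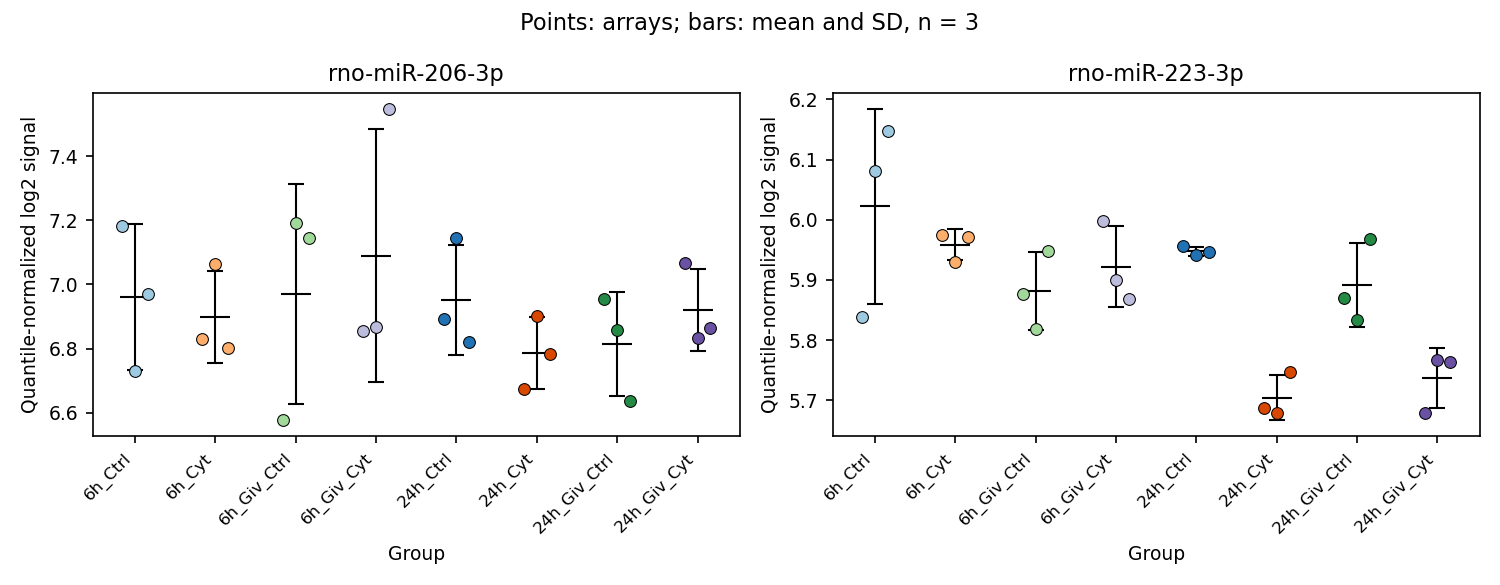
Quantile-normalized log2 signal (vertical axis, not starting at 0 and different in each panel) of rno-miR-206-3p and rno-miR-223-3p by group; points are arrays and bars are the mean and SD of 3 arrays. The rno-miR-206-3p groups all overlap their neighbours, and the rno-miR-223-3p arrays of 24h_Cyt and 24h_Giv_Cyt, at 5.68 to 5.77, lie below every other array.

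No other member was called in any comparison. The remaining 8 members had log2FCs between -0.11 and 0.11 in the 12 pairwise comparisons, and their lowest adjusted p was 0.113. The share of all miRs called by limma was 0.132% for 24h_Giv_Cyt against 24h_Cyt, 0.528% against 24h_Giv_Ctrl, 0.396% against 6h_Giv_Cyt and 0.528% for the cytokine effect at 24 h minus that at 6 h. It was 0% in each of the other 9 comparisons. At an unadjusted p below 0.05 from limma, 17 of the 150 results of the 10 members passed, or 11.3%, against 7.20% over all miRs. All 17 were of rno-miR-223-3p, rno-miR-142-3p, rno-miR-451-5p, rno-miR-133a-3p and rno-miR-150-5p, each well above background on 0 of 24 arrays. Those of rno-miR-133a-3p involve 6h_Giv_Cyt, where 1 bright spot lifted its mean on 6h_Giv_Cyt_1. The comparisons share arrays, so the 17 results are not separate, and they are differences in readings near background. In 24h_Cyt vs 24h_Ctrl the median log2FC was -0.0013 over the members and -0.011 over all miRs.

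**Figure D5:**
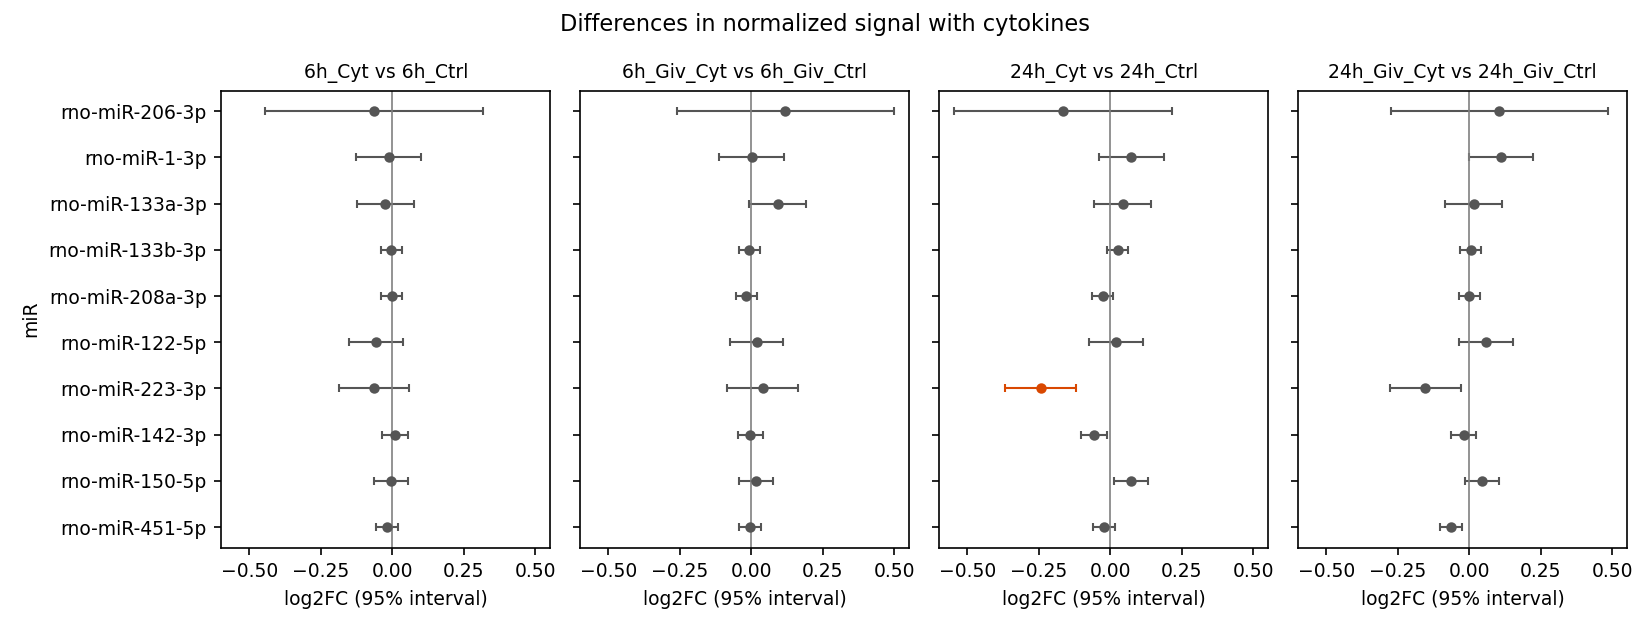
log2FC with its 95% interval from limma (horizontal axis) for the 10 miRs (vertical axis) in the 4 comparisons with and without cytokines; orange marks a call. Only rno-miR-223-3p in 24h_Cyt vs 24h_Ctrl, at -0.24, was called, and the interval of rno-miR-206-3p was the widest in each panel.

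The study's methods fit the spots of a miR as correlated duplicates, which counts spots of 1 array toward the precision. With that pooled correlation, 10 member results were called, 6 of rno-miR-223-3p and 4 of rno-miR-206-3p, and again none of the other 8 miRs. rno-miR-206-3p was then called lower in 24h_Cyt vs 24h_Ctrl (log2FC -0.16, adjusted p 0.0223), where 6.33% of all miRs were called, and in 24h_Giv_Cyt vs 6h_Giv_Cyt (-0.17, 0.0498), where 1.85% were. It was called higher in 6h_Giv_Cyt vs 6h_Cyt (0.19, 0.0161), where 2.77% were, and its cytokine effect at 24 h was higher with Givinostat than without (0.27, 0.0177), where 2.90% were. Without 6h_Giv_Cyt_3 the difference of 24h_Giv_Cyt from 6h_Giv_Cyt turned to 0.0591 and that of 6h_Giv_Cyt from 6h_Cyt to -0.0368, so the direction of both rests on that array. rno-miR-223-3p was called lower in the comparisons of 24h_Cyt, 24h_Giv_Cyt and 6h_Giv_Ctrl with their controls and of both cytokine groups at 24 h with those at 6 h, where 6.33%, 5.67%, 0.660%, 2.37% and 1.85% of all miRs were called, and its cytokine effect was lower at 24 h than at 6 h, where 2.77% were. The log2FCs are those of the array means, and the test of the array means called 2 of these 10.

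Without normalization between arrays, more members passed in the bright groups. In 24h_Giv_Cyt vs 24h_Giv_Ctrl, 5 members were called higher by limma (rno-miR-1-3p, rno-miR-122-5p, rno-miR-133b-3p, rno-miR-150-5p and rno-miR-206-3p), where 42.6% of all miRs were called and the median log2FC over all miRs was 0.18. The log2FC of rno-miR-206-3p was 0.64 there, against a median of 0.43 over the detected miRs. In 24h_Cyt vs 24h_Ctrl 1 member, rno-miR-1-3p, was called, where 22.8% of all miRs were, and rno-miR-206-3p was at 0.63 against a median of 0.70 over the detected miRs. More RNA of all miRs and a brighter array cannot be told apart in these data. Nor can slide in 24h_Cyt vs 24h_Ctrl, groups that share no slide.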

How the data were processed

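The 10 miRs and the marker lists were chosen with earlier results of these data known. Per the file headers, Agilent Feature Extraction 10.7.3.1 wrote the deposited scanner files, with median and mean foreground, background and processed intensity of each spot on a linear scale, not normalized between arrays. A log2 table deposited by the authors equals the median of a miR's 16 quantile-normalized spots (median absolute difference 2.63e-10, column medians 5.52 to 5.54). Here, following the study's methods, the median foreground intensity was used without background correction, 434 negative and 281 positive control spots were removed, and quantile normalization between arrays came before log2. A miR's level on an array is the mean of its 16 spots, for 758 miRs.

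The 24 array means were fitted with limma 3.58.1 (R 4.3.3), using 8 group means and 16 residual degrees of freedom. Array means were used in place of the pooled correlation because spots of an array share their RNA. The 12 pairwise comparisons and 3 differences between such comparisons were tested, with Benjamini-Hochberg adjustment over all 758 miRs in each. A call is an adjusted p below 0.05 and an absolute log2FC above 0.1375, a fold change of 1.1. "Well above background" is at least 8 of 16 spots marked. All 10 miRs and, for the 1 detected member, the 3 most correlated detected miRs are named; the miRs with the GUGUGUG run, rno-miR-3591 and rno-miR-375-3p were named after their values were seen. The marker lists are islet and beta cell, other muscle, other blood cell, endothelial (1 of 2 on any array, rno-miR-126a-3p on 2), fibroblast and smooth muscle (1 of 5, rno-miR-214-3p on 13) and the members' other arms. No saturated spot was found. Replicate numbers were not used to pair the arrays in the main fit. For numbers 1, 2 and 3, 13, 13 and 16 of 28 same-number pairs had deviations correlated above 0.1, with mean r of -0.074, -0.048 and 0.049. Pairs with different numbers were not counted, so whether the numbers pair arrays is left unsettled. The number of arrays limits the precision, and read depth has no counterpart on arrays. Sequences are RefSeq's on GRCr8; the array's own probe positions, on rn4, were not used. Other experiments of the study were not analysed here.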

Additional observations from a re-analysis of the deposited data

How the results depend on the processing

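Besides leaving out each of the 24 arrays, 17 other settings were tried, of which 2, removing spots marked as outliers and array brightness as a covariate, were chosen after seeing the data. Of 255 counts of called members under these settings, 232 stayed on their side. In 24h_Cyt vs 24h_Ctrl the count of 1 became 0 when only detected miRs were tested, with slide as a fixed block, without the arrays of slide 1 and with brightness as a covariate, and 2 with pooled correlation. In 24h_Cyt vs 6h_Cyt the count of 1 became 0 with the mean foreground signal, without normalization, in the deposited table, with the median of spots, when only detected miRs were tested, with slide as a fixed or random block, without slide 1, without outlier spots and with brightness as a covariate. The count of 0 became 1 with pooled correlation in 6h_Giv_Cyt vs 6h_Cyt, 6h_Giv_Ctrl vs 6h_Ctrl, 24h_Giv_Cyt vs 24h_Giv_Ctrl and in the differences between 24 h and 6 h and with and without Givinostat at 24 h, and 2 in 24h_Giv_Cyt vs 6h_Giv_Cyt. It became 5 without normalization in 24h_Giv_Cyt vs 24h_Giv_Ctrl and 1 with scaled processed signal in 24h_Giv_Cyt vs 6h_Giv_Cyt. Leaving out an array gave 0 to 1 in each of 24h_Cyt vs 24h_Ctrl, 24h_Cyt vs 6h_Cyt and 24h_Giv_Cyt vs 6h_Giv_Cyt, and 0 elsewhere.

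Members on at least 1 array were 6, 1 and 4 with 1 spot, all 16 spots or Feature Extraction's per-miR mark required, in place of 2. Members on all arrays of a group were 3 and 4 with 1 spot or that mark, and 1 to 2 when an array was left out. At these other settings the share of all miRs was not counted, so the members cannot be set against the whole array there.

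The log2FC of rno-miR-206-3p changed sign without normalization in 6h_Cyt vs 6h_Ctrl (0.0687), 24h_Cyt vs 24h_Ctrl (0.63) and 24h_Giv_Ctrl vs 24h_Ctrl (0.0264), with brightness as a covariate in 6h_Cyt vs 6h_Ctrl (0.0274), 24h_Cyt vs 24h_Ctrl (0.32) and 24h_Giv_Cyt vs 24h_Cyt (-0.0661), without slide 1 in 6h_Giv_Cyt vs 6h_Giv_Ctrl (-0.0777), and in 6h_Giv_Ctrl vs 6h_Ctrl with scaled processed signal (-0.0418) and in the deposited table and with the median of spots (-0.00616 in both). Leaving out an array, it ran from -0.18 to 0.0480 in 6h_Cyt vs 6h_Ctrl, -0.0368 to 0.31 in 6h_Giv_Cyt vs 6h_Cyt, -0.11 to 0.24 in 6h_Giv_Cyt vs 6h_Giv_Ctrl and -0.11 to 0.21 in 6h_Giv_Ctrl vs 6h_Ctrl. That of rno-miR-223-3p became positive without normalization in 24h_Giv_Cyt vs 24h_Giv_Ctrl (0.11) and 24h_Giv_Cyt vs 6h_Giv_Cyt (0.0265). The cause of these changes was not tested. The replicate number as a block left the count of called members at 1 in 24h_Cyt vs 24h_Ctrl and 24h_Cyt vs 6h_Cyt and at 0 elsewhere. Whether that number pairs arrays is not known. Signal over background limits all members but rno-miR-206-3p.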
